A study of Mus musculus with 6 samples.

Results

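The transcripts of mitochondrial ribosomal proteins were examined in mouse quadriceps, a large thigh muscle, as probe sets whose Entrez identifier belongs to a gene with a symbol starting in Mrpl or Mrps followed by a digit. The rule found 73 of the 16492 gene probe sets on the array: 46 protein-coding genes named for the large subunit, 25 protein-coding genes named for the small subunit and 2 pseudogenes. RefSeq lists 78 protein-coding genes under these symbols, and the other 7 were not analysed here. Messenger RNA had been hybridised to Affymetrix expression arrays, 1 array per mouse, for 3 mice with a single allele of nebulin (nebulin +/-, heterozygous, HET below) and 3 with both alleles (nebulin +/+, wild type, WT below). No treatment was given to either group, and strain, sex and age were not given in the sources used here. Nebulin is a giant protein of the sarcomere thin filament, and the comparison addresses how muscle transcripts respond to the loss of 1 of its gene copies.

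Mitochondria keep their own ribosomes, which translate the few messenger RNAs of the mitochondrial genome into core subunits of the respiratory chain and the ATP synthase. The ribosomal RNAs are made inside the organelle, whereas every protein of this ribosome is encoded in the nucleus, translated in the cytosol and imported. The large subunit forms the peptide bond and releases the chain through an exit tunnel towards the inner membrane, and the small subunit binds the messenger RNA and decodes it. Skeletal muscle, a tissue rich in mitochondria, depends on this translation, and mutations in several of these genes cause mitochondrial disease in humans.

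The deposited values are log2 signals with the same distribution on every array (median 7.23, lowest 5.56, highest 14.81), so a shift of all transcripts together could not be seen. Each sample is labelled as its own mouse, and the 3 arrays a group limit the precision. Neb itself measured 12.08, 11.73 and 11.94 in HET mice 1 to 3 and 12.17, 12.09 and 12.16 in WT mice 1 to 3. The groups did not overlap, but the log2 difference of -0.22 ± 0.08 (SE) did not pass the test (limma, adjusted p = 0.161), and the position of its probes relative to the altered allele was not given in the sources used here. The genotype labels therefore rest on the submitters' word. Without HET mouse 1 it passed (-0.31, adjusted p = 0.0399). All 12 muscle fibre markers examined were above the intensity filter, with means of 10.38 to 14.81. Of these, Myh7, the myosin of slow fibres, rose with a log2 difference of 3.00 ± 0.38 (SE; adjusted p = 0.0104), and the part of fibre type in the results below was not tested. The summed signal of 5 endothelial markers ran from 10.67 to 10.79 in HET and from 10.86 to 10.94 in WT mice, and that of 2 Schwann cell markers from 8.890 to 9.23 in HET and from 8.63 to 8.886 in WT mice (log2 of the sum). The Schwann cell sums barely separated, and both markers overlapped singly: Mbp (0.37, limma, adjusted p = 0.147) and Sox10 (0.03, adjusted p = 0.726). The part of endothelial and Schwann cells in the results was not tested. The sums of muscle fibre, fibroblast, leukocyte, adipocyte and smooth muscle markers, and the single red cell marker, overlapped between the groups, although a sum follows its brightest markers. Among single markers, Egfl7 of the endothelium fell (-0.25, limma, adjusted p = 0.0271). Kdr, also endothelial, had a difference of -0.25 that passed with the replicate number as a block (adjusted p = 0.0174) but not without it (0.0575). The endothelial markers did not all move alike. Tek was lower in every HET mouse without passing (-0.17, adjusted p = 0.144). Cdh5 (-0.08, adjusted p = 0.282) and Pecam1 (0.02, adjusted p = 0.863) overlapped between the groups. The collagen genes Col1a2 and Col1a1, with differences of 0.61 and 0.39, and the adipocyte gene Lep, with 0.52, were higher in every HET mouse than in any WT mouse without passing (adjusted p = 0.131, 0.157 and 0.108), and Col1a2 passed with that block (0.0475). The other fibroblast markers overlapped between the groups, with Dcn at 0.07, Lum at 0.12, Col3a1 at -0.08 and Pdgfra at -0.004. The part of fibroblasts and adipocytes in the results was not tested. In bulk muscle, fewer cells of a type and less RNA per cell cannot be told apart.

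Transcripts of the mitochondrial ribosome differed little between the genotypes. All 73 probe sets passed the intensity filter, 1 fell in HET muscle, none rose and 72 did not pass an adjusted p of 0.05 (limma over 11544 probe sets), which is 1.37% called against 3.11% of all tested probe sets (1.58% lower in HET and 1.53% higher). The differences ran from -0.21 to 0.17 on the log2 scale with a median of -0.02, against a median of 0.00 over all tested probe sets. Every one of the 73 had a 95% confidence interval, unadjusted for the number of genes, that lay between -0.32 and 0.32, a bound chosen after the values were seen, as had 92.5% of all tested probe sets. The interval that reached lowest was that of Mrpl18, at -0.32, and the one that reached highest was that of Mrps21, at 0.28.

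**Figure D1:**
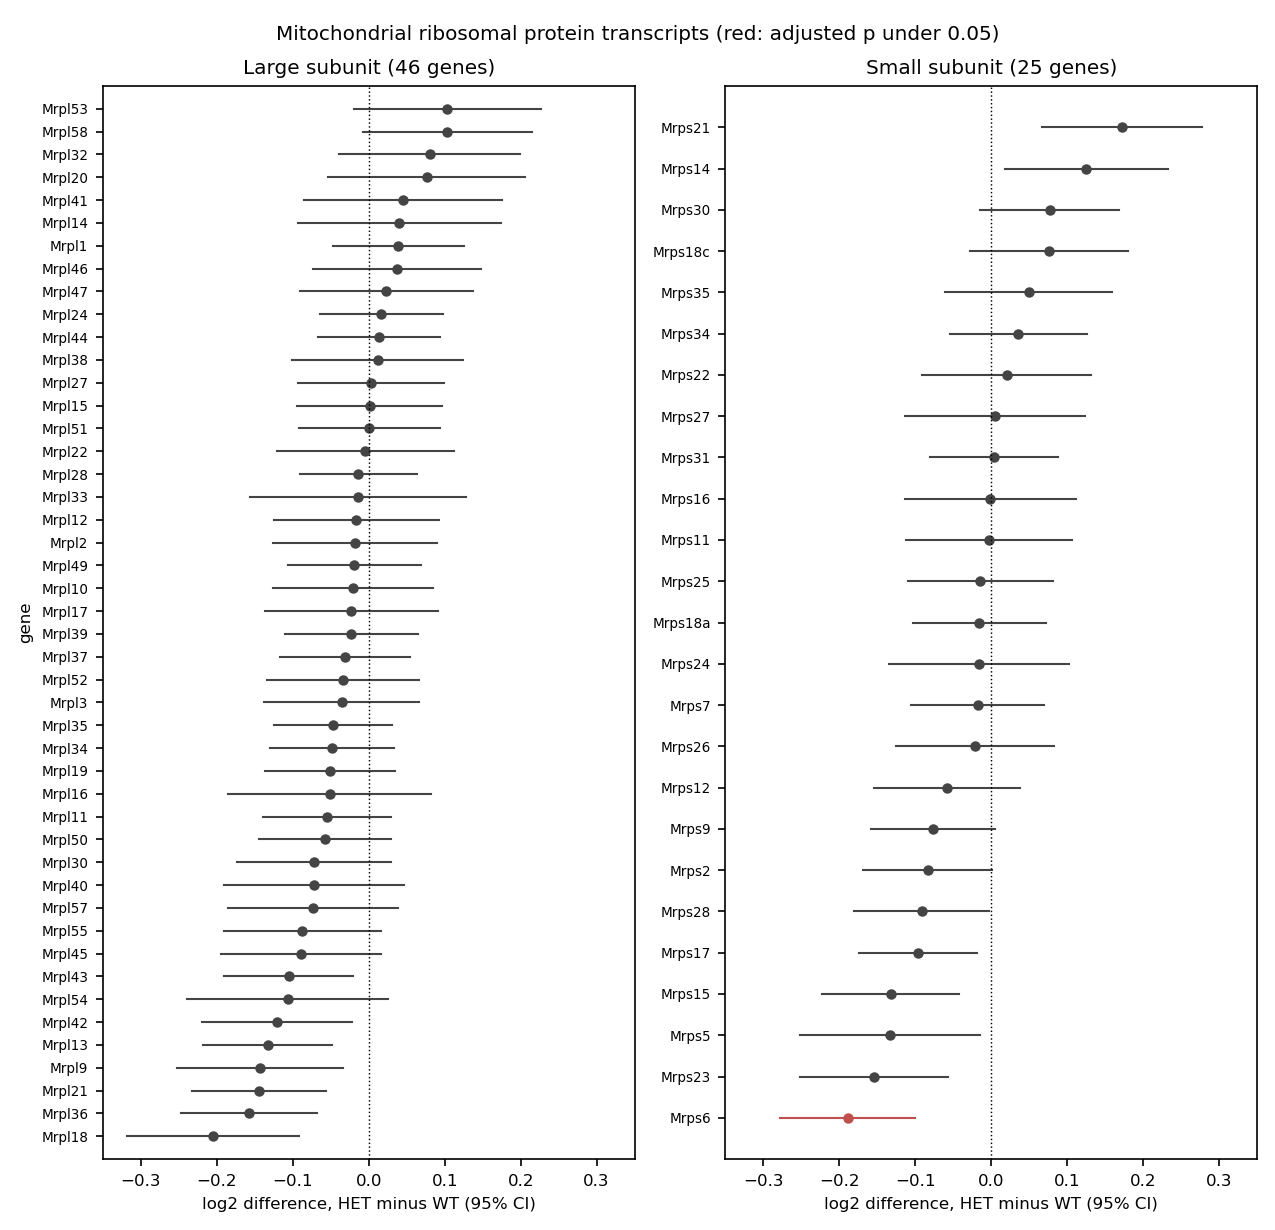
Log2 difference between heterozygous and wild-type muscle (horizontal axis, HET minus WT) for 46 large subunit and 25 small subunit genes, with limma's 95% confidence interval as a line. All intervals stay between -0.32 and 0.28, and Mrps6, in red, is the gene that passed an adjusted p of 0.05.

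By subunit, none of the 46 large subunit genes passed, and 1 of 25 small subunit genes, Mrps6, fell. The median difference was -0.02 in both subunits, with quartiles of -0.07 and 0.01 in the large subunit and of -0.08 and 0.02 in the small subunit. The difference was below 0 for 31 of 46 large subunit genes (67.4%) and 16 of 25 small subunit genes (64.0%), against 50.6% of all tested probe sets. At an unadjusted limma p under 0.05, 7 large subunit genes were lower in HET and none was higher, and 6 small subunit genes were lower and 2 higher. Together that is 17.8% of the members lower and 2.74% higher, against 10.8% and 9.72% of all tested probe sets. HET and WT mice did not overlap for 10 large subunit genes (9 lower in HET, 1 higher) and 12 small subunit genes (8 lower, 4 higher). These are 21.7% of the large and 48.0% of the small subunit, and 30.1% of the members against 26.3% of all tested probe sets. Of the members, 23.3% were lower in HET without overlap and 6.85% higher, against 13.2% and 13.1% of all tested probe sets. Mrps18a and Mrps30 carry small subunit names although their proteins sit in the large subunit, and counting them there left the medians at -0.02 and the calls at 0 and 1.

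**Figure D2:**
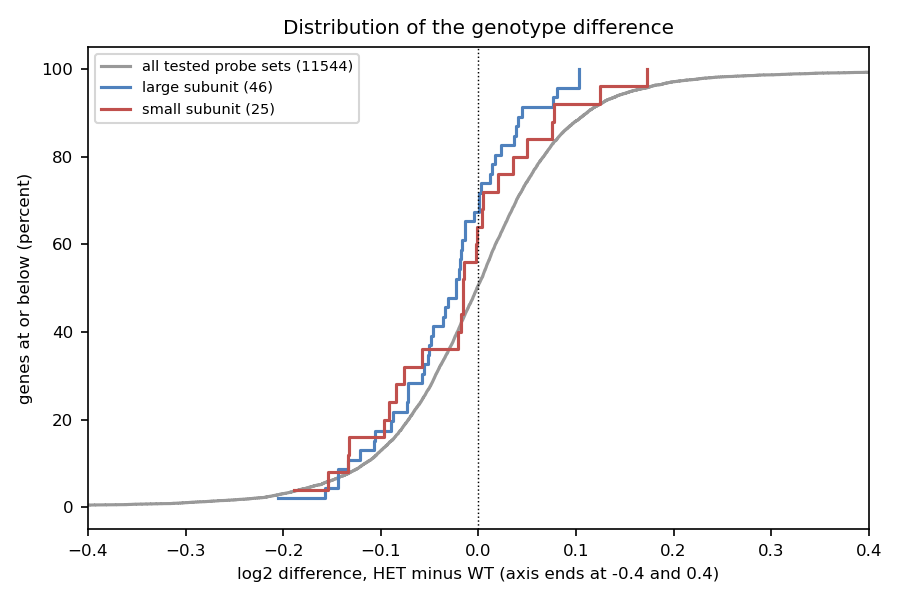
Share of genes (percent, vertical axis) at or below each log2 difference (HET minus WT, horizontal axis) for the large subunit, the small subunit and all 11544 tested probe sets. Both subunits have a median of -0.02. The large subunit spans -0.21 to 0.10 and the small subunit -0.19 to 0.17.

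The subunits were also followed mouse by mouse, as the median deviation of their genes from each gene's mean over the 6 mice. For the large subunit this was -0.04, 0.03 and -0.03 in HET mice 1 to 3 and 0.01, 0.02 and 0.01 in WT mice 1 to 3. For the small subunit it was -0.02, 0.03 and -0.03 in HET mice and 0.01, 0.02 and 0.00 in WT mice. HET mouse 2 lay above the WT mice and the other HET mice below them in both subunits, so the genotypes overlapped. Without HET mouse 2 the median difference was -0.04 for the large and -0.05 for the small subunit, and without HET mouse 3 it was -0.015 and 0.0039. The same mouse had the highest median for 20 cytosolic ribosomal protein genes, 0.10, with the other 5 mice between -0.06 and 0.00.

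**Figure D3:**
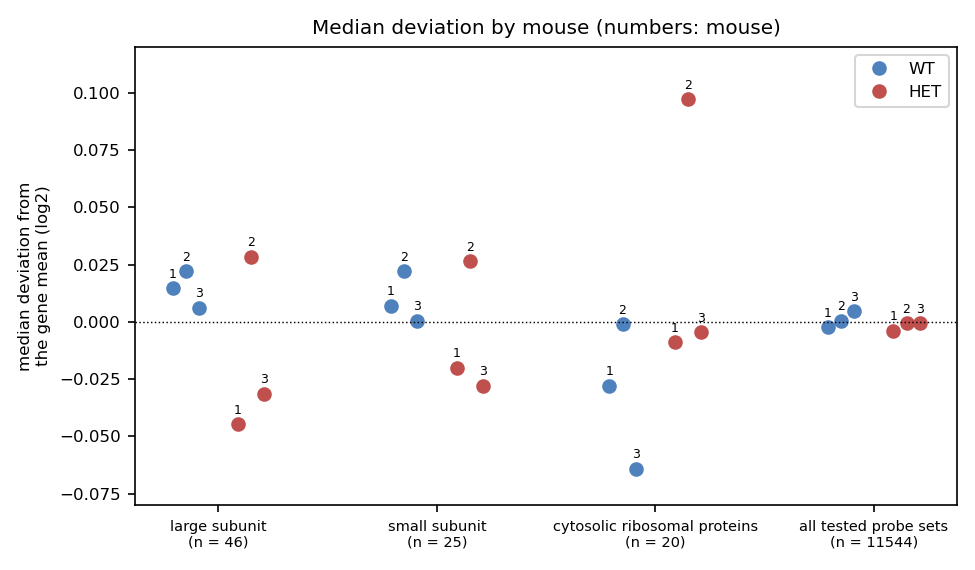
Median deviation from the gene mean (log2, vertical axis) in each mouse, for the large subunit, the small subunit, cytosolic ribosomal proteins and all tested probe sets, each point being 1 mouse with its number. HET mouse 2 lies at 0.03 in both mitochondrial subunits, above the WT mice, and the other HET mice lie between -0.04 and -0.02.

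Mrps6 encodes a protein of the small subunit platform, the side that faces the large subunit near the exit of the messenger RNA, where in bacteria the homologous protein binds the ribosomal RNA as a pair with that of Mrps18c. Mrps6 measured 8.92, 8.86 and 8.82 in HET mice 1 to 3 and 9.06, 9.03 and 9.07 in WT mice 1 to 3. Every HET mouse lay below every WT mouse. The difference was -0.19 ± 0.04 on the log2 scale (SE; 8.87 ± 0.05 against 9.06 ± 0.02, SD, n = 3 each; limma, adjusted p = 0.040), so the transcript fell by 12.3% (95% confidence interval -17.5% to -6.74%). The direction held in every fit, but the call was lost with an intensity trend in the variance (adjusted p = 0.058) and when any mouse other than HET mouse 1 was left out (adjusted p from 0.094 without WT mouse 2 to 0.131 without HET mouse 3).

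The other platform genes did not share one direction. Mrps21 measured 10.94, 11.03 and 10.88 in HET mice and 10.73, 10.81 and 10.79 in WT mice, with every HET mouse above every WT mouse and a difference of 0.17 ± 0.05 (SE) that did not pass (adjusted p = 0.084). Mrps15, whose bacterial counterpart binds early in platform assembly, measured 9.91, 9.97 and 9.91 in HET and 10.02, 10.11 and 10.07 in WT mice. It was lower in each HET mouse, with a difference of -0.13 ± 0.04 (adjusted p = 0.108). Mrps18c had a difference of 0.08 ± 0.05 (adjusted p = 0.383), with HET mouse 2 at 9.71 above the other HET mice at 9.56 and 9.59 and the WT mice at 9.54 to 9.55. Mrps11 was at 8.61 ± 0.06 (SD) in both genotypes. The signal of Mrps21 relative to that of Mrps6 was 0.36 higher on the log2 scale in HET than in WT mice, and the groups did not overlap (two-sided exact permutation p = 0.1, the smallest that 3 mice against 3 allow). The pair was chosen after its values were seen. Mrps21 was higher and Mrps6 lower in every HET mouse than in any WT mouse. The separation and this p-value were therefore fixed in advance and add no support.

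**Figure D4:**
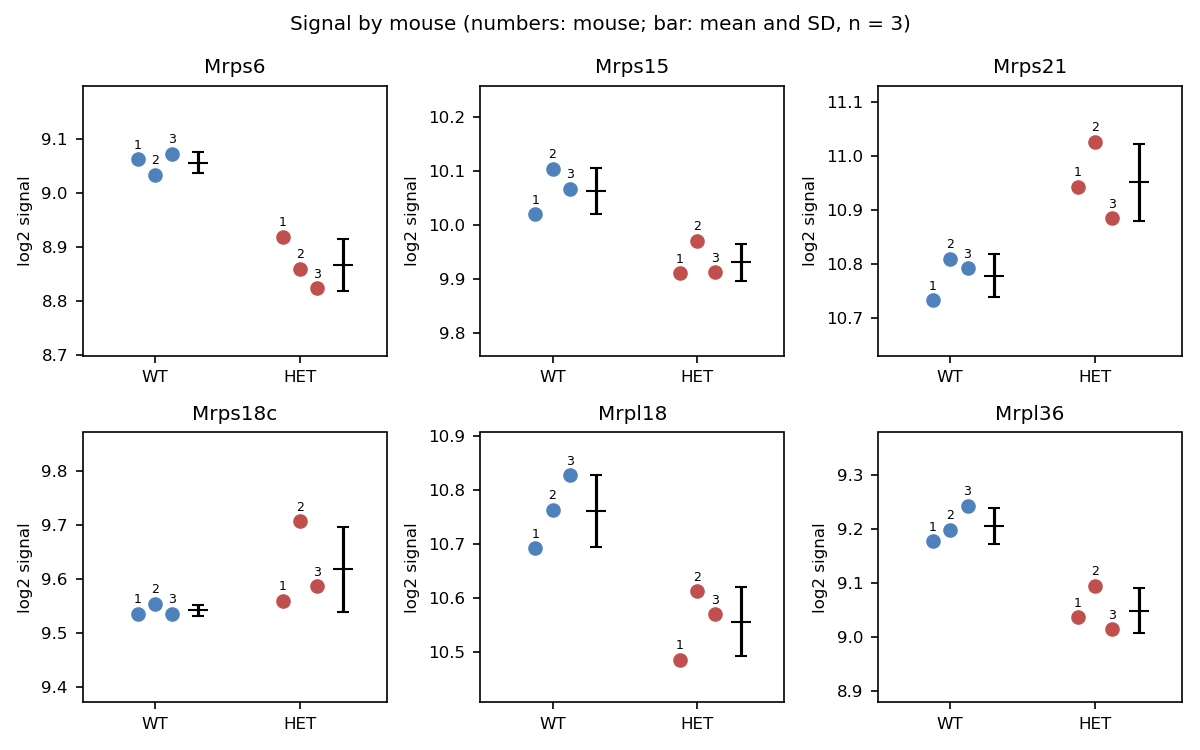
Log2 signal (vertical axis) of 4 small subunit platform genes and 2 large subunit genes in each mouse, with the mean and SD of each genotype (n = 3) beside the points, all panels spanning the same height on axes that do not start at 0. HET mice lie below WT mice for Mrps6, Mrps15, Mrpl18 and Mrpl36 and above them for Mrps21 and Mrps18c.

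The promoters of Mrps6 and Mrps21 are shown because these platform genes had the largest differences of their subunit in opposite directions. The 250 bases before each start were taken from RefSeq, assembly GRCm38.p6, at chr16:92058086-92058335 on the plus strand for Mrps6 and at chr3:95871515-95871764 on the minus strand for Mrps21. Capitals mark matches, on either strand, to CCGGAAG (ETS family, which includes GABPA), GCGCA and GCGC with any 1 base between them (NRF1), AAGGTCA (the core of the ERR receptor element), GGGCGG (SP1 family), CCAAT (NF-Y) and AAGATGG (YY1), and adjoining capitals can be overlapping matches.
Mrps6 upstream: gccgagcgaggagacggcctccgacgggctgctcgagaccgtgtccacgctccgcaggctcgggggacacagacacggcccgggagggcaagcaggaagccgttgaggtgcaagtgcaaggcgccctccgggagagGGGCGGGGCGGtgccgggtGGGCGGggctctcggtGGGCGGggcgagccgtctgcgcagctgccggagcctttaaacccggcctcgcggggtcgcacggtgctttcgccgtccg
Mrps21 upstream: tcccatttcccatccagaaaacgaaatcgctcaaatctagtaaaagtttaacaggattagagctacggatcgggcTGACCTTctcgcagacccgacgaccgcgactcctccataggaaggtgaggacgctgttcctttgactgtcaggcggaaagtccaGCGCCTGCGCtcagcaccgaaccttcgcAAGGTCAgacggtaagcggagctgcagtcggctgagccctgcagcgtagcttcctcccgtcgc
Mrps6 had 4 matches to the SP1 letters and none to the others, and Mrps21 had 1 to the NRF1 letters and 2 to the ERR letters. A match is a description of the letters and was not tied to a factor or to the differences.

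Among the other small subunit genes, Mrps23 had a difference of -0.15 ± 0.04 (adjusted p = 0.091) and Mrps17 of -0.10 ± 0.03 (adjusted p = 0.158), each lower in all HET mice. Mrps14, a protein of the subunit head, measured 8.95, 9.08 and 8.93 in HET and 8.88, 8.84 and 8.87 in WT mice, a difference of 0.13 ± 0.05 that did not pass (adjusted p = 0.183). Mrps30 had a difference of 0.08 ± 0.04 (adjusted p = 0.315) and Mrps18a of -0.02 ± 0.04 (adjusted p = 0.859). Mrps5, which lies at the entry of the messenger RNA, had a difference of -0.13 ± 0.05 (adjusted p = 0.196), with HET mice at 7.89, 7.89 and 8.02 and WT mice at 8.03, 8.03 and 8.14. Mrps28 had a difference of -0.09 ± 0.04 (adjusted p = 0.234), and Mrps25 and Mrps16 of -0.01 and 0.00.

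In the large subunit, Mrpl18 had the largest difference. Its protein lies in the central protuberance, where the bacterial counterpart carries the small ribosomal RNA that mammalian mitochondria replace with a transfer RNA. It measured 10.49, 10.61 and 10.57 in HET mice 1 to 3 and 10.69, 10.76 and 10.83 in WT mice 1 to 3, so that every HET mouse was below every WT mouse. The difference of -0.21 ± 0.05 (SE; -13.3%, 95% confidence interval -19.8% to -6.19%) did not pass (limma, adjusted p = 0.066). With the replicate number as a block it passed (adjusted p = 0.036), which made 2 calls among the 73 against 4.95% of all tested probe sets.

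Mrpl36, the smallest of the bacterial-type proteins, measured 9.04, 9.09 and 9.01 in HET mice and 9.18, 9.20 and 9.24 in WT mice. It too was lower in all HET mice, with a difference of -0.16 ± 0.04 (adjusted p = 0.069). Mrpl21 had a difference of -0.14 ± 0.04 (adjusted p = 0.084) and Mrpl13 of -0.13 ± 0.04 (adjusted p = 0.094), both lower in every HET mouse. On the other side, Mrpl58 had a difference of 0.10 ± 0.05 (adjusted p = 0.271). It encodes a hydrolase that frees chains from stalled ribosomes and is also built into the central protuberance. Mrpl53, near the stalk base, had a difference of 0.10 ± 0.05 (adjusted p = 0.316), Mrpl32 of 0.08 ± 0.05 (adjusted p = 0.420) and Mrpl20 of 0.08 ± 0.06 (adjusted p = 0.485). Mrpl12, the stalk protein that recruits translation factors, was at 10.89 ± 0.09 in HET and 10.91 ± 0.02 in WT mice (SD, n = 3 each; adjusted p = 0.881).

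Probe-set signals of the members averaged between 7.44 for Mrpl41 and 12.51 for Mrpl30, and no order of abundance is read from them, because probes differ in brightness. None of the genes at the ends of this range passed in either subunit. Mrpl30 and Mrpl42, the brightest of the large subunit, had differences of -0.07 and -0.12, and Mrpl41 and Mrpl1, the dimmest, of 0.05 and 0.04. Mrpl42, and at the ends of the small subunit Mrps5 and Mrps28, were lower in every HET mouse than in any WT mouse.

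Grouped by place in the ribosome, in groups drawn up after the values were seen, none of 4 genes of the peptidyl transferase centre passed and their differences lay between -0.05 and 0.00. None of 5 genes of the exit tunnel passed (-0.09 to 0.02), none of 6 stalk genes (-0.11 to 0.10) and none of 6 central protuberance genes (-0.21 to 0.10). In the small subunit 1 of 5 platform genes fell (-0.19 to 0.17), and none of 3 genes of decoding and messenger RNA entry (-0.13 to -0.02) or of 3 head genes (-0.08 to 0.13) passed. The platform call is 20.0% of 5 genes against 3.11% of all tested probe sets. Of 13 genes mutated in human mitochondrial translation disease, none passed, with differences of -0.15 to 0.13 and a median of -0.01.

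The proteins were also split by ancestry, into those listed with a bacterial homologue and all others, called mitochondria-specific here. In the small subunit, 12 of 15 genes with a bacterial homologue had a difference below 0 (80.0% against 50.6% of all tested probe sets), with a median of -0.06. So had 4 of 10 mitochondria-specific genes, with a median of 0.00. These 10 include Mrps18a (-0.02) and Mrps30 (0.08, no overlap), whose proteins sit in the large subunit. Mrps18a is of the same family as Mrps18c, which is among the 15, so the name of the class is loose for it. The groups of mice did not overlap for 10 of these 15 (7 lower in HET, 3 higher, 66.7%) and for 2 of these 10 (20.0%). Among all tested probe sets this share was 26.3% (13.2% lower in HET and 13.1% higher). Mrps28, with a difference of -0.09 and no overlap, was placed among the 15 after values were seen, which widened the contrast between the classes. In the large subunit the medians were -0.02 over 28 genes with a homologue and -0.03 over 18 without. The groups of mice did not overlap for 7 and 3 of them. Counted in either direction, both shares lie below that of all tested probe sets. By direction, all 7 were lower in HET, a share above the 13.2% of all tested probe sets. Of the 3, 2 were lower and 1 higher. Differences were below 0 for 20 of the 28 (71.4%) and 11 of the 18 (61.1%), against 50.6% of all tested probe sets. The difference between the classes was not tested.

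Both pseudogenes gave bright probe sets. Mrpl27-ps measured 10.80 ± 0.15 in HET and 10.77 ± 0.08 in WT mice, a difference of 0.03 (adjusted p = 0.849), and its parent gene Mrpl27 had a difference of 0.00 (adjusted p = 0.981). Mrpl23-ps1 measured 10.65 ± 0.08 and 10.57 ± 0.09, a difference of 0.08 (adjusted p = 0.472). Whether these probes also bind the transcripts of the parent genes was not tested.

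In the rest of the mitochondrial translation apparatus 1 gene passed. Dap3, Chchd1 and Gadd45gip1, mitochondrial ribosomal proteins under other names, had differences of 0.13 ± 0.04, 0.12 ± 0.05 and 0.06 ± 0.04, none of which passed (adjusted p = 0.094, 0.258 and 0.466). All 11 translation factor and related genes tested had a difference below 0, against 50.6% of all tested probe sets. Their median was -0.05, and none passed. HET and WT mice did not overlap for 5 of them, all lower in HET (45.5% against 13.2% of all tested probe sets). Gfm1, the elongation factor that moves the ribosome along the messenger RNA, had a difference of -0.20 ± 0.05, which passed with the replicate block (adjusted p = 0.049) but not without it (0.077). Mrrf, the recycling factor, had a difference of -0.08 ± 0.03 (adjusted p = 0.254).

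Of 18 mitochondrial aminoacyl-tRNA synthetase and related genes tested, Sars2 rose, none fell and 17 did not pass, with a median of -0.04. This is 5.56% called against 3.11% of all tested probe sets. Qrsl1, a subunit of the enzyme that makes glutaminyl-tRNA, had a difference of -0.18 ± 0.05, which likewise passed with that block (adjusted p = 0.036) but not without it (0.086). None of 17 mitochondrial transcription and RNA processing genes passed (median -0.04). Tfb1m, which methylates the ribosomal RNA of the small subunit, had a difference of -0.12 (adjusted p = 0.144), and Supv3l1, an RNA helicase, of 0.07. None of 20 genes listed for mitoribosome assembly passed (median -0.01). That list also holds Bop1 (-0.005), a factor of cytosolic ribosome assembly. Mrm1, a methyltransferase of the ribosomal RNA of the large subunit, had a difference of -0.15 (limma, adjusted p = 0.098) and Mettl15 of -0.11.

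Markers of mitochondrial mass gave no call among 8 genes tested (median 0.01), with Vdac1, the outer membrane channel, at 0.09 and Tomm22, an import receptor, at 0.06. None of 20 cytosolic ribosomal protein genes tested passed either. Their median was 0.06 and 15 of the 20 differences were above 0, where Rpl22 had 0.20 (adjusted p = 0.080 without the block, 0.041 under it, and 0.0345 without HET mouse 1) and Rpl15 0.11.

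Sars2 encodes the mitochondrial seryl-tRNA synthetase, and it starts back to back with Mrps12, whose protein lies at the decoding centre. Sars2 measured 9.24, 9.17 and 9.08 in HET mice 1 to 3 and 8.73, 8.83 and 8.76 in WT mice 1 to 3. Every HET mouse lay above every WT mouse, and the transcript rose, with a log2 difference of 0.40 ± 0.05 (SE; 9.17 ± 0.08 against 8.77 ± 0.05, SD, n = 3 each; limma, adjusted p = 0.0104), a call that held when each mouse was left out in turn (adjusted p up to 0.042). Mrps12 measured 10.11, 10.07 and 10.02 in HET mice and 10.08, 10.18 and 10.11 in WT mice, which overlapped, with a difference of -0.06 ± 0.04 (adjusted p = 0.474). The signal of Sars2 relative to that of Mrps12 was 0.45 higher in HET than in WT mice and the groups did not overlap (two-sided exact permutation p = 0.1, the smallest possible). Sars2 alone separated the groups by more than Mrps12 overlapped. This separation and p-value were therefore fixed in advance and add no support.

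The stretch between both genes is shown because it lies upstream of both. The starts in the promoter table are 146 bases apart, and the 135 bases printed end where the annotated span of Sars2 begins, just before its start in that table. The sequence was taken from RefSeq, assembly GRCm38.p6, at chr7:28741822-28741956, and is written on the plus strand, in the direction of Sars2, with Mrps12 starting to its left on the minus strand. Capitals mark the same motifs as above.
Mrps12-Sars2 interval: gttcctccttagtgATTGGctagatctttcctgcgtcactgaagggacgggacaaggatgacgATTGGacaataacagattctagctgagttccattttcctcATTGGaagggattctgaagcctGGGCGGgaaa
It holds 3 matches to the CCAAT letters, read on the minus strand, and 1 to the SP1 letters.

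Of 63 member genes with a RefSeq promoter, 21 (33.3%) had a protein-coding gene starting on the opposite strand within 500 bases upstream, against 7.53% of 17492 protein-coding genes with a promoter there. Among the members' pairs, 15 distinct ones had both genes tested, among them Mrpl46 with Mrps11. Sars2 was called, and the other partners lay between -0.11 and 0.12. Mrpl43, with a difference of -0.11 ± 0.04, starts beside Twnk, the helicase of mitochondrial DNA replication, with 0.12 ± 0.04 (adjusted p = 0.112). Mrpl18 starts beside the chaperonin gene Tcp1, which had a difference of 0.02 ± 0.04 (adjusted p = 0.803). The differences had opposite signs in 13 of the 15 pairs, and this was not tested. The distance of 500 bases, the pair of Sars2 and Mrps12 and the motifs were chosen after the values were seen.

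**Figure D5:**
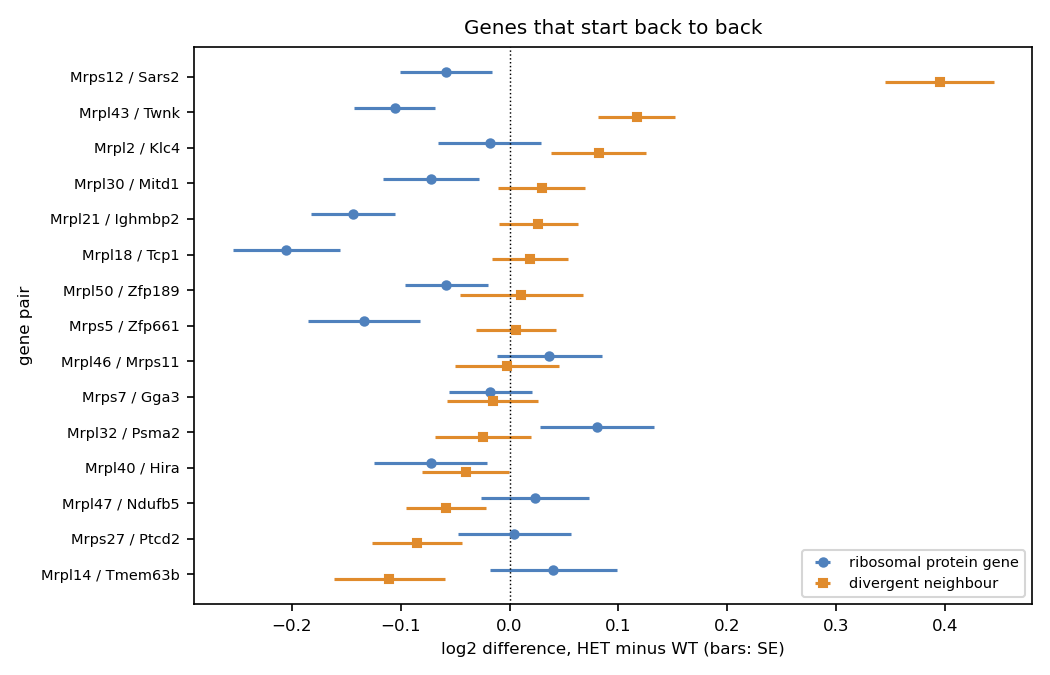
Log2 difference (HET minus WT, horizontal axis) with its SE for 15 pairs of a mitochondrial ribosomal protein gene and the gene that starts within 500 bases on the opposite strand. Sars2 lies at 0.40, apart from its partner Mrps12 at -0.06, and the other partners lie between -0.11 and 0.12.

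All 6 motifs were found in a larger share of the members' promoters than of all promoters, most clearly 3 of them, and this was not tested. CCGGAAG was found in 23 of 66 member promoters (34.8%) and in 11.6% of 21263 promoters of protein-coding genes of the same length. These shares were counted over whole promoter sequences, which were not cut at the start as the printed ones were. The NRF1 letters were found in 19.7% against 6.38%, and AAGATGG in 19.7% against 6.24%. The other motifs differed less, with GGGCGG in 48.5% against 46.2%, CCAAT in 42.4% against 38.2% and AAGGTCA in 6.06% against 4.08%. By subunit, CCGGAAG was found in 32.6% of large and 39.1% of small subunit promoters. GGGCGG was found in 39.5% of large subunit promoters, below its share of all promoters, and in 65.2% of small subunit promoters. NRF1, GABPA and YY1 are known as regulators of nuclear genes for mitochondria, and their binding was not measured here.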

How the data were processed

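Expression was measured in quadriceps RNA of 6 mice on Affymetrix arrays. Trizol extraction, Qiagen column clean-up and biotin labelling are stated per the labels' protocols. The authors deposited log2 values, whose sorted columns were identical on all arrays (largest difference 0), as quantile normalization leaves them. Summarisation software, background correction and probe definitions were not given in the sources used here.

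Symbols were taken by Entrez identifier from RefSeq (GRCm38.p6). The platform annotation also names 71 of the 73 members, all but the pseudogenes. Gene probe sets with a mean above the 30th percentile (6.74) entered a limma fit (3.58.1, R 4.3.3) of the genotype difference. P-values were adjusted by Benjamini-Hochberg over these 11544 probe sets. The script was tested on simulated data. Single contrasts used exact permutation tests (scipy 1.17.1). Alternatives were a replicate block, no filter or the 50th percentile, cyclic loess, array weights, an intensity trend, leaving out each mouse, and other subunit assignments. Markers of muscle fibres, fibroblasts, endothelium, leukocytes, adipocytes, smooth muscle, Schwann cells and red cells were examined.

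The text names members that passed, the 4 of smallest p per direction and the 2 of highest and lowest signal in each subunit, 4 members for their roles, the 2 of smallest p in each related list, and Neb. Other genes were named after their values were seen. Members and lists were chosen with earlier results of these data known.

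Mice of both genotypes are numbered 1 to 3 without a stated shared litter. Mice of equal number deviated together (correlations 0.187, 0.234 and 0.129, each above 0.1), so blocked values stand beside a result whose call they change. Motif searches, gene pairs, places in the ribosome and the bacterial ancestry of Mrps28 were added after values were seen.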

Additional observations from a re-analysis of the deposited data

How the results depend on the processing

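With the replicate number as a block, 572 probe sets passed in place of 359, 2 members in place of 1 (1 in the large and 1 in the small subunit), and 4 genes of the related lists in place of 1. With an intensity trend no member passed (limma, 0 calls), in the small subunit as in all; 15 members had an unadjusted p under 0.05 in the main setting. Leaving out 1 mouse gave 84 to 503 calls over all probe sets, 0 to 1 among the members and in the small subunit, 0 in the large subunit, and 1 to 2 in the related lists. The median difference then ran from -0.044 to -0.015 in the large and from -0.049 to 0.0039 in the small subunit. Both lowest values came without HET mouse 2. With all 6 mice, the other filters, cyclic loess and array weights left 1 member called, and counting the pseudogenes or Mrps18a and Mrps30 in the large subunit left its calls at 0.

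The sign of Mrps16, at 0.00, turned with cyclic loess (0.0039), and with mice left out it ran from -0.052 to 0.030. Mrpl12 ran from -0.064 to 0.018, Mrpl41 from -0.015 to 0.095, Mrps18a from -0.033 to 0.0088 and Mrps25 from -0.049 to 0.0086. Over repeats for 42 named genes, 482 kept the direction and the side of the threshold, 6 lost a call, 6 gained one and 10 turned sign. The cause of these changes was not tested.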
